A study of Mus musculus with 2 samples.

Results

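The hepatoblast transcription factor network was followed as 8 genes, Hnf4a, Foxa1, Foxa2, Foxa3, Cebpa, Prox1, Tbx3 and Nr5a2, chosen by gene symbol, and all 8 of 8 were found among the 55536 Ensembl genes quantified. RNA came from liver of B6NCrl mouse embryos at 12.5 days of development, taken as whole tissue from pooled males and females. Replicate 1 was a pool of 120 embryos and replicate 2 a pool of 88, so each value is an average over many animals, and the 2 libraries form a single group with no contrast between conditions. Oligo-dT primed the reverse transcription of 10 ng of RNA for each library. Replicate 1 had 38293265 expected counts in all and replicate 2 had 35399872. An expected count is the number of reads assigned to a gene or transcript, and TPM divides that count by effective length and by the library's total, scaled to a fixed sum, so that levels of different genes can be set side by side.

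Hepatoblasts are the bipotent progenitors of the foetal liver that give rise to hepatocytes and bile duct cells. Foxa proteins are forkhead factors that open compact chromatin at liver genes, and the nuclear receptors Hnf4a and Nr5a2, the leucine zipper factor C/EBPalpha (gene Cebpa), the homeobox factor Prox1 and the T-box factor Tbx3 act with them to set the hepatic programme. Several of these factors bind one another's genes, and Hnf4a is known for a pair of alternative promoters whose use changes as the liver matures. At this stage the organ also makes blood, and whole tissue holds blood cells beside hepatoblasts. In such bulk RNA fewer cells of a type and less RNA per cell cannot be told apart.

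All 8 genes were expressed at 1 TPM or more as the mean of both libraries, a level that 54.3% of 21992 protein-coding genes reached. Only Foxa3 and Hnf4a stood at 10 TPM or more, 2 of 8 genes where 32.1% of protein-coding genes did, and none reached 100 TPM, as 5.39% did. These shares are the background for each list counted at 1, 10 or 100 TPM below. The median over the 8 genes was 7.71 TPM in replicate 1 and 7.05 TPM in replicate 2, against medians of 1.81 and 1.84 TPM over all protein-coding genes. Together they summed to 70.05 and 66.6 TPM. The hepatoblast markers Afp, Apoa1 and Alb, genes of plasma proteins, averaged 5157 ± 131 TPM, 1211 ± 5.54 TPM and 877 ± 10.8 TPM (SD, n = 2), and all 9 markers of the hepatoblast list passed 1 TPM. Erythroid markers were abundant as well, with all 7 above 100 TPM and sums of 11286 and 12148 TPM.

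Foxa3 was the most abundant of the 8, at 22.34 TPM in replicate 1 and 21.17 TPM in replicate 2. Hnf4a followed with 12.92 and 12.61 TPM, Cebpa with 9.68 and 9.69 TPM, and Tbx3 with 9.01 and 7.75 TPM. Below these lay Prox1 with 6.4 and 6.35 TPM, Foxa2 with 4.21 and 4.52 TPM, Nr5a2 with 3.32 and 2.54 TPM, and Foxa1 with 2.17 and 1.97 TPM. The order was the same in both libraries, and no 2 neighbours overlapped between libraries. The 95% Poisson intervals met in at least 1 pairing of libraries for 3 of the 7 steps. Those of Cebpa and Tbx3 met in replicate 1, at 9.01 to 10.4 and 8.52 to 9.53 TPM, but not in replicate 2, at 8.99 to 10.4 and 7.29 to 8.24 TPM. Foxa2 and Nr5a2 met at the edge in replicate 1 and were apart in replicate 2, and Nr5a2 and Foxa1 were apart in replicate 1 and met at the edge in replicate 2. The order of these neighbours is therefore less firm than that of the others, as the steps from Foxa3 to Hnf4a, Hnf4a to Cebpa, Tbx3 to Prox1 and Prox1 to Foxa2 stayed apart. The libraries carried no molecular identifiers and PCR copies are not independent, so intervals here cover counting error alone.

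**Figure D1:**
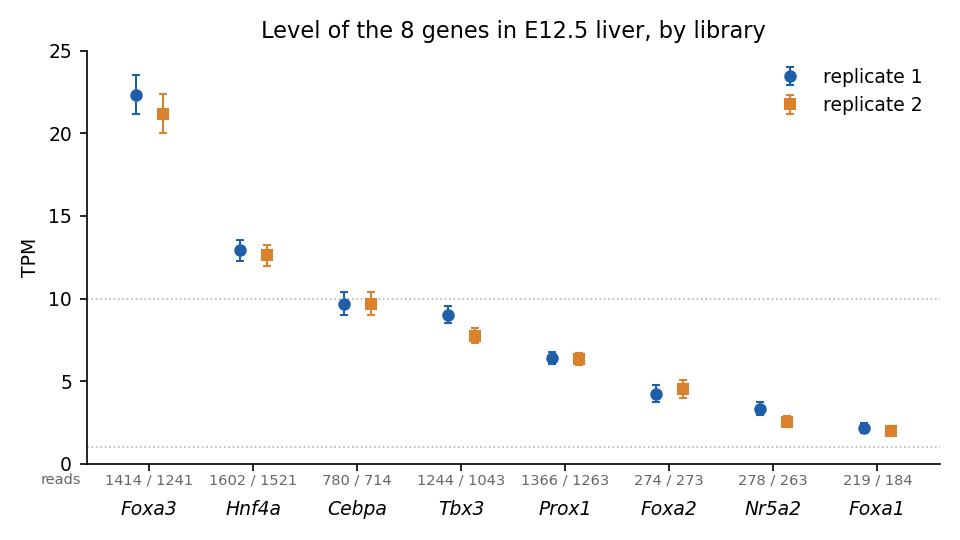
TPM of the 8 genes (y axis) in the 2 liver libraries, in descending order of mean, with the expected counts of replicate 1 and replicate 2 under each gene. Bars are 95% Poisson intervals of the counts, dotted lines mark 1 and 10 TPM, and the points run from 22.34 TPM for Foxa3 down to 1.97 TPM for Foxa1.

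The 2 pools differed little for these genes. After TMM scaling of the counts, which sets the bulk of genes level between libraries, the log2 ratio of replicate 1 to replicate 2 lay between -0.11 for Foxa2 and 0.14 for Tbx3, and 0 of 8 genes passed 2-fold, against 2.35% of the 17328 genes that averaged 10 expected counts or more. At a background of this size a count of 0 says little of the 8 genes. Set beside genes within 2-fold of its own count, the size of the ratio was at percentile 82.3 for Tbx3, 57.2 for Foxa3 and 49.4 for Foxa1, and the other 5 genes lay lower. When the libraries were scaled by the ERCC spike-ins instead, every ratio moved up by 0.12 on the log2 scale, to between 0.012 for Foxa2 and 0.26 for Tbx3, so the sign of the Hnf4a, Foxa2, Prox1 and Nr5a2 ratios depends on the scaling, while 0 of 8 genes passed 2-fold either way. Prox1 had 1366 and 1263 counts, a scaled ratio of 0.99987, and Tbx3 had 1244 and 1043 counts, a scaled ratio of 1.10. For Nr5a2 counts and TPM parted. Its 278 and 263 counts gave a scaled ratio of 0.977, but its TPM ratio was 1.31, because the reads were assigned to different transcripts and the effective length was 2563 bases in replicate 1 and 3425 bases in replicate 2. With 2 libraries of 1 group there is no contrast to test, and no p-value was computed.

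**Figure D2:**
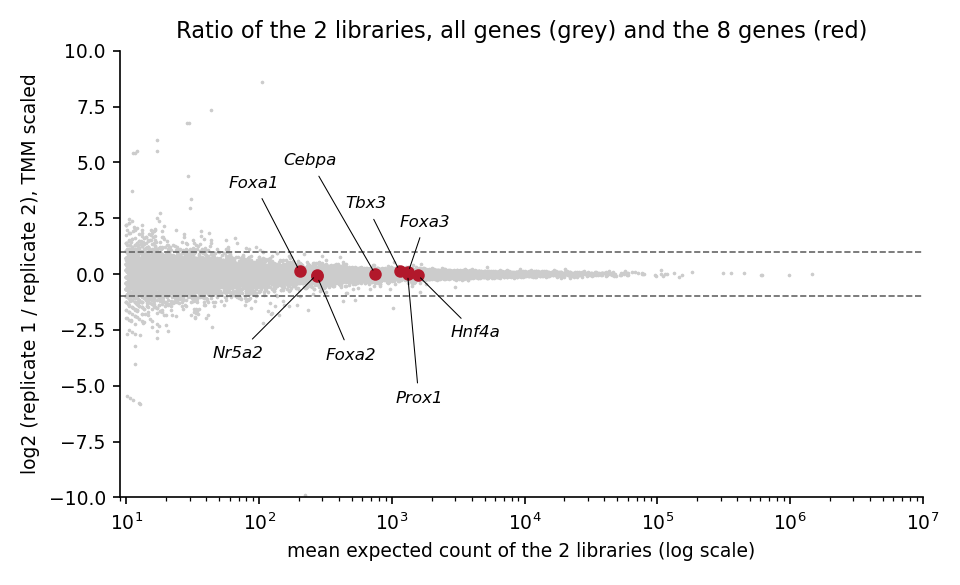
Log2 ratio of TMM-scaled counts, replicate 1 over replicate 2 (y axis), against the mean expected count (x axis, log scale) for 17328 genes in grey and the 8 genes in red. Dashed lines mark 2-fold, and the 8 genes lie between -0.11 and 0.14.

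Foxa1, Foxa2 and Foxa3 encode closely related forkhead proteins, of which Foxa1 and Foxa2 are together required for the liver to form in mice, while Foxa3 is best known for its role in glucose homeostasis in the adult. In this liver Foxa3 held most of the family's message. It stood at 5.31 and 4.68 times Foxa2, a mean of 4.995 ± 0.44, and at 10.3 and 10.7 times Foxa1 (SD 0.319, n = 2). Of the summed TPM of the 3 genes, Foxa3 made up 77.8% in replicate 1 and 76.5% in replicate 2. Foxa2 in turn was 1.94 and 2.29 times Foxa1. The counts behind these levels were 1414 and 1241 for Foxa3, 274 and 273 for Foxa2, and 219 and 184 for Foxa1. Both libraries gave the same order, and the exact binomial interval of Foxa2 against Foxa1, 1.62 to 2.33 in replicate 1 and 1.90 to 2.78 in replicate 2, did not include equality. Among 44 forkhead genes by symbol, a ranking made with the values in view, Foxa3 was behind only Foxp1 at 22.96 TPM and Foxn3 at 21.9 TPM as means of both libraries, against 21.755 TPM for Foxa3. Foxm1 followed at 21.4 TPM. Foxn3, Foxa3 and Foxm1 lay closer together than the Foxa3 SD of 0.827 TPM, so their order is not told apart.

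Each Foxa gene was read mainly from a single start. Foxa3 (ENSMUSG00000040891.6, chr7:19013284-19023538 on the minus strand, mm10) has 1 annotated transcript, Foxa3-201, and lies 839 bases from the start of Sympk, a housekeeping gene of mRNA polyadenylation on the opposite strand with 27.91 and 25.3 TPM. Foxa1 (ENSMUSG00000035451.7, chr12:57540628-57546916, minus strand) had all of its counts on Foxa1-201, of 468 codons, and none on the short non-coding Foxa1-202. Foxa2 (ENSMUSG00000037025.11, chr2:148042877-148046969, minus strand) had 97.2% and 97.8% of its TPM on Foxa2-201, which starts 1021 bases upstream of Foxa2-202. That division was uncertain. Foxa2-202 had an expected count of 0 in both libraries but a posterior mean of 42.2 ± 30.5 and 29.9 ± 23.8 reads (the deposited posterior SD), and by posterior mean TPM the upstream start held 76.6% and 81.3%. The lincRNA 9030622O22Rik, 2674 bases beyond the end of Foxa2 on the same strand, had 33 and 16 reads.

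The Foxa3 promoter is shown because this was the most abundant of the 8 genes and its window holds TATAAA, the letters of a TATA box, close to the start. The RefSeq sequence (GRCm38.p6) of the bases just upstream of the start, chr7:19023540-19023789 on the minus strand, reads as follows, with the TATAAA letters in capitals.
Foxa3 promoter: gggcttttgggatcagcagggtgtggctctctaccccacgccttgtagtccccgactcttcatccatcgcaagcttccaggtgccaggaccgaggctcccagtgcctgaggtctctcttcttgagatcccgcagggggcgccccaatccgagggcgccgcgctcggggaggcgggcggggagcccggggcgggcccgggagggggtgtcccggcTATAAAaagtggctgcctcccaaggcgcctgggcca
The capitals lie at bases -36 to -31 from the RefSeq start, and the window also holds the letters GGGCGG at 2 places. TATAAA, searched on both strands, occurs in 13.6% of 32851 RefSeq promoter windows of 300 bases, and GGGCGG in 35.7%. Foxa1 has no TATAAA match in its window but holds the FOXA letters TGTTTAC on the opposite strand at bases -141 to -135, a match found in 3.65% of all windows.

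Markers of other endoderm that express Foxa genes were mostly under 1 TPM. Of 7 markers of gut, pancreas and lung endoderm only Barx1, a homeobox gene of stomach mesenchyme, passed 1 TPM, with 6.57 and 5.98 TPM. Vil1 came next at 0.68 and 0.78 TPM on 67 and 71 counts, and then Pdx1 at 0.21 and 0.05 TPM on 14 and 3 counts. Nkx2-1 and Ptf1a, which define lung and exocrine pancreas, had no counts, Sox2 was at 0.02 TPM in both libraries, and the list summed to 7.51 and 6.83 TPM. Of 8 known Foxa targets 4 passed 1 TPM, a share near the 54.3% of all protein-coding genes. Afp, Alb and Ttr led, the last at 196 ± 0.608 TPM, while the gluconeogenic and amino acid enzymes of the postnatal liver stayed low. G6pc, glucose-6-phosphatase, had 0 counts in both libraries, which allows up to 3 counts in each, and Tat, tyrosine aminotransferase, was at 0.08 and 0.11 TPM.

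**Figure D3:**
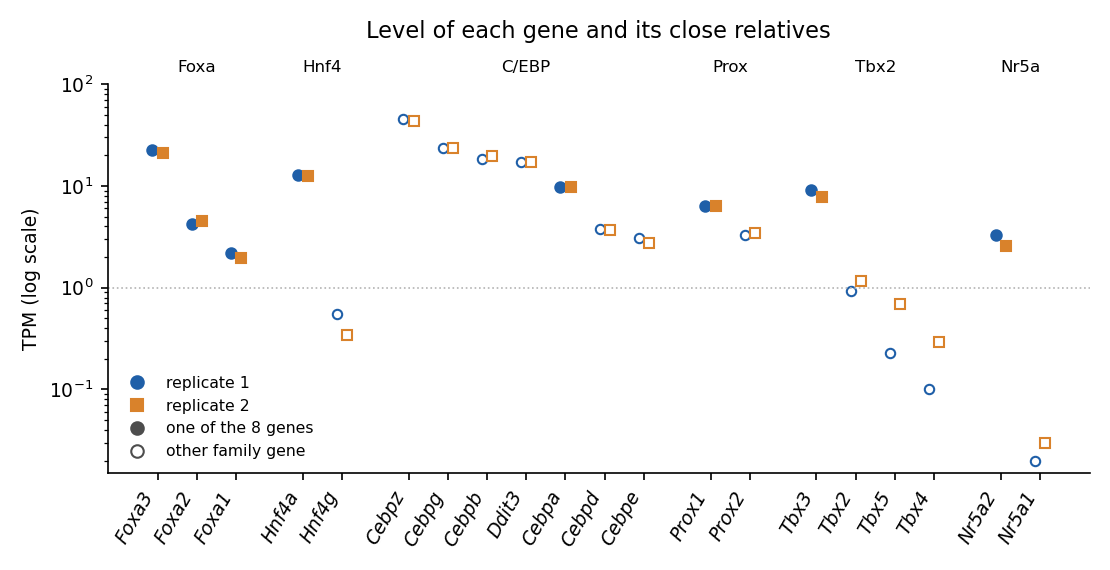
TPM on a log axis (y axis) of each of the 8 genes and its close relatives, grouped by family, with a pair of symbols per gene for the 2 libraries. Filled symbols are the 8 genes and open symbols their relatives, the dotted line marks 1 TPM, and Hnf4a, Prox1, Tbx3, Nr5a2 and Foxa3 are the highest of their families, whereas Cebpa is not.

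Hnf4a (ENSMUSG00000017950.16, chr2:163506808-163572910, plus strand) encodes the nuclear receptor that controls a large share of hepatocyte genes, and mutations of human HNF4A cause a form of inherited diabetes. Its counts were 1602 in replicate 1 and 1521 in replicate 2, a mean of 12.8 ± 0.219 TPM. Its relative Hnf4g, known from gut and kidney, had 0.55 and 0.34 TPM on 39 and 23 counts, so that Hnf4a stood 23.5 and 37.1 times higher.

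Both Hnf4a promoters gave reads, and most reads were assigned to models of the downstream promoter. P1, the promoter of the adult liver, gives Hnf4a-201 and Hnf4a-202, and P2, which is used in pancreas, stomach and foetal liver, lies 40379 bases upstream and gives Hnf4a-205. The P2 transcript had 16.62 reads in replicate 1 (95% Poisson interval of the rounded count 9.90 to 27.2) and 8.86 reads in replicate 2 (4.12 to 17.1), or 1.04% and 0.583% of the gene's reads. By TPM the same transcript held 11.8% in replicate 1 and 6.98% in replicate 2, a mean of 9.41% ± 3.44. The measures differ because Hnf4a-205 is a model of 431 bases that ends after 3 exons, with an effective length of 332 bases against 4263 for Hnf4a-202. Its first exon of 180 bases, chr2:163506808-163506987, is the stretch that P1 transcripts lack. P2 was thus detected in both libraries, while its share depends on the unit and rests on few reads. No P2 model reaches the later exons, so reads there from a longer P2 transcript would be assigned to P1 models. The P2 share of reads may therefore be too low.

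Within P1 the reads could not be divided. Hnf4a-201 and Hnf4a-202 have the same 10 exons, differ by 6 bases in length and are annotated with 474 and 465 codons from different start codons. The expected counts placed 0 and 0.36 reads on Hnf4a-201 and 1585 and 1512 on Hnf4a-202, whereas the posterior means were 582 ± 281 and 667 ± 405 reads for Hnf4a-201 and 1001 ± 281 and 842 ± 405 reads for Hnf4a-202. These spreads cover an even division, and only the sum of the pair is used here. The remaining models, Hnf4a-203 and Hnf4a-204, had 0 expected counts in both libraries. On the opposite strand Hnf4aos, which overlaps the P2 start, had 0 and 2 counts, and R3hdml, 4196 bases upstream, had 1 count in each library.

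**Figure D4:**
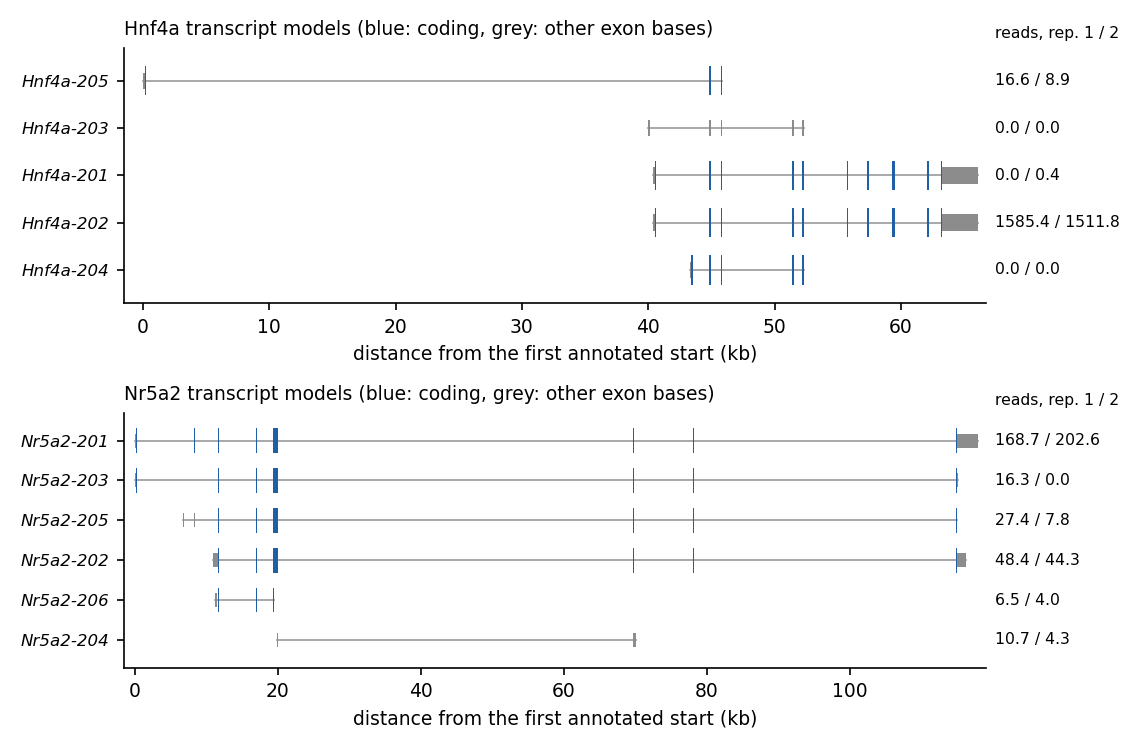
Transcript models of Hnf4a and Nr5a2 drawn to scale as distance in kb from the first annotated start (x axis), with coding bases in blue, other exon bases in grey and expected counts of replicate 1 and replicate 2 at the right. Hnf4a-205 from P2 had 16.6 and 8.9 reads and Hnf4a-202 from P1 had 1585 and 1512, and Nr5a2 reads were spread over 6 transcripts.

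The sequences of the bases before both Hnf4a starts are shown because the promoters differ so widely in assigned reads. They come from the RefSeq windows on GRCm38.p6, chr2:163546905-163547154 for P1 and chr2:163506607-163506807 for P2, both on the plus strand and ending 1 base before the first annotated start. The capitals in P2 mark letters that match the ONECUT motif, and P1 has none in capitals.
Hnf4a P1: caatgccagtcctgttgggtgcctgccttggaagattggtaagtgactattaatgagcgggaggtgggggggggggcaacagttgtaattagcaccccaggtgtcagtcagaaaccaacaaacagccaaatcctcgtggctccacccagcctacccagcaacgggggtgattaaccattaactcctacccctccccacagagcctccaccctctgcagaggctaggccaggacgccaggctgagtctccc
Hnf4a P2: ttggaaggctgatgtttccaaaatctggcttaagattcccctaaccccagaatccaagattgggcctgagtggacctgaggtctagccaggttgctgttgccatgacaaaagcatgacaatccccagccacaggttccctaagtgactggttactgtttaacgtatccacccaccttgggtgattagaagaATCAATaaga
The P2 capitals are ATCAAT, the ONECUT letters, at bases -59 to -54 from the RefSeq start, a match that 7.54% of all windows hold. P2 also holds GGGCGG downstream of the printed bases. The P1 window held neither ATCAAT nor TATAAA nor GGGCGG. Letters of the HNF1 motif were not searched in either window. Onecut1, whose protein binds the ONECUT letters, was expressed at 1.96 ± 0.276 TPM. A match is a description of letters, and binding was not measured.

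The coactivators of Hnf4a were all present. Of 8 partners and coregulators 8 passed 1 TPM, with Med1, a Mediator subunit that contacts nuclear receptors, at 34.5 ± 0.856 TPM, Ep300, a histone acetyltransferase, at 10.6 ± 0.955 TPM, and its relative Crebbp at 9.96 ± 0.332 TPM. Ppargc1a, the coactivator of fasting metabolism, was at 2.08 and 1.88 TPM. Of 15 known Hnf4a targets 12 passed 1 TPM, 10 passed 10 TPM and 6 passed 100 TPM, where 54.3%, 32.1% and 5.39% of protein-coding genes did. The apolipoprotein genes Apoa2 and Apoa1 led with 2160 ± 79.4 TPM and 1211 ± 5.54 TPM, and Ambp, the alpha-1-microglobulin gene, had 503 ± 18.3 TPM. The bile acid enzymes Cyp7a1 and Cyp8b1 were the lowest, at 0.16 ± 0.0141 TPM and 0.205 ± 0.0354 TPM, with 20 and 14 counts in replicate 1. Targets were listed from known biology, and whether Hnf4a set their levels here was not tested.

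Nr5a2 (ENSMUSG00000026398.14, chr1:136842571-136960448, minus strand) encodes LRH-1, a nuclear receptor that binds DNA as a monomer and drives bile acid and cholesterol genes in the adult liver. It had 278 and 263 counts, a mean of 2.93 ± 0.552 TPM, and the widest relative spread of the 8 genes, 18.8% of its mean. Its relative Nr5a1, the factor of steroid-making tissue, had 2 and 3 counts. The ratio of Nr5a2 to Nr5a1 was 166 in replicate 1 and 84.7 in replicate 2, with exact binomial intervals of 45.5 to 1378 and 28.7 to 413, so its size is known only roughly.

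Nr5a2 was the gene with the most starts at 10% of TPM or more. Its 6 transcripts have 6 starts when grouped at 50 bases, and 5 of these held at least 10% of TPM in 1 or both libraries. By reads the leading start held less in Tbx3, at 45.4% and 63.1%, than in Nr5a2. The most upstream start, of Nr5a2-201 with 560 codons, held 33.5% of TPM in replicate 1 and 56.9% in replicate 2, and 60.7% and 77.0% of reads. Nr5a2-203, which starts 68 bases further in and skips the second exon of Nr5a2-201, added 8.46% of TPM in replicate 1 and nothing in replicate 2. The start of Nr5a2-205, 6818 bases downstream, held 15.4% and 6.27% of TPM on 27.35 and 7.82 reads. Nr5a2-202 had 13.3% and 17.3% on 48.4 and 44.27 reads, Nr5a2-206 had 10.3% and 9.02% on 6.53 and 3.99 reads, and the retained intron model Nr5a2-204 had 19.0% and 10.6% on 10.74 and 4.3 reads. Nr5a2-202 and Nr5a2-205 are annotated with the same 499 codons, fewer than Nr5a2-201. The full-length Nr5a2-201 therefore led in both libraries by TPM and by reads, and the short models gained in TPM what they lacked in reads. The reads on each minor transcript were few.

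Upstream and middle Nr5a2 promoters are shown to set the leading start beside an alternative one. They are RefSeq windows on GRCm38.p6, chr1:136960449-136960698 and chr1:136953631-136953880, both on the minus strand. Capitals mark TATAAA on the opposite strand in the upstream window, at bases -181 to -176 and so far from the start, and the CEBP letters TTGCNNAA on the opposite strand in the middle window, at bases -243 to -236.
Nr5a2 upstream promoter: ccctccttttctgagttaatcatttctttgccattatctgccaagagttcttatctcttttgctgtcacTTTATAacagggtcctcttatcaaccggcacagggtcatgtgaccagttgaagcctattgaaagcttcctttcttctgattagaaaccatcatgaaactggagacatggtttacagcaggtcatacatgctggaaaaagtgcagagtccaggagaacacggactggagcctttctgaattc
Nr5a2 middle promoter: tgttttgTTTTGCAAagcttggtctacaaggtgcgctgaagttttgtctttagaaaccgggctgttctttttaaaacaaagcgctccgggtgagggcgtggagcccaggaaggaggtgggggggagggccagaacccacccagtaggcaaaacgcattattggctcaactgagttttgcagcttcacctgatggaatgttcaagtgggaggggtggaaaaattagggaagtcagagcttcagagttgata
The CEBP letters occur in 10.8% of all windows. Neither window held the NR5A letters CAAGGTCA or either HNF4 motif (the direct repeat motif and the letters CAAAGTCCA), which says only that these letters are not there. The NR5A letters occur in 1.56% of all windows and the HNF4 motifs in 0.0274% and 0.475%. GC content was 42.0% for the upstream window and 49.0% for the middle window, below the 52.7% median of all windows, and the upstream window was the poorest in GC of the 12 windows annotated for 7 of the 8 genes, whose median was 57.3%.

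Genes of bile acid and sterol metabolism that Nr5a2 is known to control were mostly low. Of 8 targets 2 passed 1 TPM. These were Apom, an apolipoprotein gene, at 415 ± 16.8 TPM, and Scarb1, the receptor for high-density lipoprotein, at 73.7 ± 0.856 TPM. Nr0b2, which encodes the partner and inhibitor SHP, was at 0.47 and 0.64 TPM, and Cel, carboxyl ester lipase of the pancreas, had no counts. Of its 5 partners and inhibitors 3 passed 1 TPM, where 54.3% of protein-coding genes did. Ctnnb1, beta-catenin, was at 134 ± 1.19 TPM, Ncoa3 at 6.895 ± 0.0919 TPM and Ncoa1 at 1.78 ± 0.24 TPM, while the inhibitors Nr0b1 and Nr0b2 stayed below 1 TPM.

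Cebpa (ENSMUSG00000034957.10, chr7:35119293-35121928, plus strand) encodes a factor that halts proliferation and drives differentiation in hepatocytes, fat cells and granulocytes. Its 780 and 714 counts gave 9.68 and 9.69 TPM. It was not the highest of its relatives. Cebpb, induced in the acute phase response and in regeneration, had 18.32 and 19.56 TPM, so that Cebpa was at 0.528 and 0.495 of it. Cebpg, a short partner that lacks an activation domain, had 23.5 and 23.3 TPM, and Cebpz, a CCAAT-binding protein related in name more than in sequence, had 44.89 and 42.91 TPM. Ddit3, the stress factor CHOP that dimerises with C/EBP proteins, had 17.09 and 17.11 TPM summed over 2 entries of that symbol. Cebpd and Cebpe were lower than Cebpa, at 3.73 ± 0.0354 TPM and 2.92 ± 0.233 TPM. All 7 members of the C/EBP list passed 1 TPM, 4 of them at 10 TPM or more.

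A spliced Cebpa transcript was assigned a minor share. Cebpa-201 is a single exon of 359 codons, and Cebpa-202 lacks 475 bases within it, chr7:35119772-35120246, which leaves an annotated frame of 159 codons. Cebpa-202 held 12.7% of TPM in replicate 1 and 19.5% in replicate 2, on 82.88 and 117.71 reads with a posterior SD of 34.7 and 30.1. The libraries differed by less than the sum of these SDs, and the shares are not told apart. Both transcripts start within 10 bases of each other. The antisense gene Gm45091, which overlaps the start, had 3 and 1 counts.

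The Cebpa promoter is shown because it too has TATAAA on the gene's own strand close to the start. Prox1 holds these letters on the opposite strand, at bases -34 to -29 of its upstream window. The RefSeq bases of Cebpa are chr7:35119043-35119292 on the plus strand of GRCm38.p6, with TATAAA in capitals at bases -30 to -25.
Cebpa promoter: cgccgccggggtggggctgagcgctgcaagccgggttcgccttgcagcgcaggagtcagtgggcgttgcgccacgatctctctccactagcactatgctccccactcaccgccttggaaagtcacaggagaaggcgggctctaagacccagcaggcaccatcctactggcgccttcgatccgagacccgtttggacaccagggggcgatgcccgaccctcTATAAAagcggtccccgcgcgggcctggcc
No CEBP letters TTGCNNAA were found in this window of 300 bases. The ratio of CpG found to CpG given by base composition was 0.853 here, against a median of 0.384 over all windows and 0.593 over the 12 windows of these genes, and it ran from 0.152 at the upstream Nr5a2 start to 0.929 at Foxa1. The Hnf4a windows were low as well, at 0.163 for P1 and 0.183 for P2.

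Cebpa is also a gene of myeloid blood cells, and their markers were present. Of 9 myeloid and granulocyte markers 8 passed 1 TPM, led by Mpo, myeloperoxidase, at 178 ± 4.29 TPM, Prtn3, proteinase 3, at 32.2 ± 0.177 TPM, and Spi1, the factor PU.1, at 14.7 ± 0.983 TPM. Gfi1 was under 1 TPM, at 0.62 and 0.84 TPM, and the list summed to 245 and 257 TPM. Mpo also stood among the targets of Cebpa, of which 4 of 8 passed 1 TPM, where 54.3% of protein-coding genes did. The targets that passed included Alb, Mpo and Csf3r, the receptor for granulocyte colony-stimulating factor, at 2.36 ± 0.0212 TPM. Cps1 of the urea cycle, at 0.08 and 0.07 TPM, and the gluconeogenic enzyme gene Pck1, at 0.06 and 0.17 TPM, were low. The part of myeloid cells in the Cebpa level was not tested. Inhibitors and partners of C/EBPalpha all passed 1 TPM, 6 of 6, among them Cdk4 at 646 ± 7.93 TPM, E2f1 at 22.8 ± 0.24 TPM and Ddit3. Trib1 and Trib2, which target C/EBPalpha for degradation, were at 2.67 ± 0.0141 TPM and 4.25 ± 0.134 TPM.

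Prox1 (ENSMUSG00000010175.13, chr1:190118035-190170714, minus strand) encodes a homeobox factor that hepatoblasts need to leave the hepatic bud and that also sets lymphatic endothelial identity. It had 6.4 and 6.35 TPM on 1366 and 1263 counts, the most even of the 8 genes between libraries by scaled counts and the most even after Cebpa by TPM. Prox2, its relative, had 3.29 and 3.43 TPM, so that Prox1 stood 1.90 ± 0.0665 times higher. This ratio depends on the annotation, since under the older GENCODE M4 Prox2 had 1.07 and 1.27 TPM on 90.15 and 92.52 counts and the ratio was 5.66.

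Its upstream start carried most Prox1 reads. The starts of Prox1-202 and Prox1-203 together held 79.1% and 79.8% of TPM and 89.8% and 90.2% of reads, and the start of Prox1-201, 1315 bases downstream, held the other 20.9% and 20.2% of TPM. These shares agreed between libraries within 1 percentage point. All 3 transcripts are annotated with the same 737 codons, so the choice of start does not alter the annotated protein. Prox1-202 also has the longest last exon, of 5371 bases against 953 for Prox1-201, and the upstream share is therefore bound to the 3′ end in these models. The antisense gene Prox1os overlaps the upstream start and had 56.18 and 54.84 counts, and Gm28172 overlaps the downstream start with 13 and 7 counts. No source used here says if counting used strand, so reads of a gene and its antisense partner may not have been told apart.

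Lymphatic endothelial markers were set beside Prox1. Of 6 markers 5 passed 1 TPM, led by Lyve1 at 23.1 ± 1.10 TPM, Nr2f2 at 20.98 ± 2.04 TPM and Sox18 at 8.29 ± 0.573 TPM, of which Lyve1 also marks liver sinusoids and macrophages, Nr2f2 venous and mesenchymal cells, and Sox18 blood endothelium. Ccl21a, the chemokine of lymphatic vessels, was at 0.32 and 0.3 TPM and Pdpn, podoplanin, at 2.1 and 1.44 TPM. The list summed to 56.9 and 59.98 TPM, and the part of these cells in the Prox1 level was not tested. Corepressors known to act with Prox1 were all at 1 TPM or more, 6 of 6, with Ctbp1 at 241 ± 9.31 TPM, Ncor1 at 92.1 ± 2.19 TPM and Hdac3 at 46.1 ± 2.35 TPM.

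Tbx3 (ENSMUSG00000018604.18, chr5:119670669-119684724, plus strand) encodes a T-box repressor that keeps hepatoblasts dividing and steers them away from bile duct fate. It had 1244 and 1043 counts, 9.01 and 7.75 TPM, the highest level but one among 17 T-box genes by symbol, behind Mga at 10.8 TPM, a ranking made with the values in view. In its own subfamily Tbx2 had 0.93 and 1.15 TPM, Tbx5 0.23 and 0.69 TPM and Tbx4 0.1 and 0.29 TPM, so Tbx3 stood 9.69 and 6.74 times above Tbx2. Of 3 known Tbx3 repression targets in the cell cycle 2 were under 1 TPM. Cdkn2a, which encodes the p19Arf and p16Ink4a inhibitors, was at 0.04 TPM in both libraries and Cdkn2b at 0.21 and 0.13 TPM. Cdkn1a, the p21 gene, was not low, at 7.5 ± 0.728 TPM, the only one of the 3 targets above 1 TPM. Whether Tbx3 set these levels was not tested.

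Tbx3 transcripts fell into forms with and without a short exon of 60 bases, often called exon 2a, which adds 20 residues within the DNA-binding T-box. The exon is shown because it is all that separates the coding sequences of the leading forms, Tbx3-201 with 741 codons and Tbx3-203 with 721. It lies at chr5:119675243-119675302 and was read from the GENCODE M21 transcript on the plus strand.
Tbx3 exon: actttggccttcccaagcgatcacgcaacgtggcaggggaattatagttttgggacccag
Tbx3-201, which contains it, held 48.1% of the TPM of the 3 full-length coding transcripts in replicate 1 and 30.4% in replicate 2, on 539.95 and 291.44 reads. Tbx3-203, which lacks it, had 564.35 and 657.59 reads. The forms were therefore near even in replicate 1, and the form without the exon led in replicate 2. These 2 models also start 156 bases apart, and both have 8 exons although Tbx3-203 lacks this one. The shares are thus those of whole models and do not measure use of the exon alone. The deposited posterior SDs were 78.6 and 60.9 reads for Tbx3-201, so the division of reads is loose, and with 1 pool on each side no test of the difference was possible.

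By start, Tbx3 was divided into closely spaced groups. Tbx3-203 starts at a site of its own with 40.95% and 60% of TPM, Tbx3-201 156 bases further on with 38.5% and 26.2%, and the retained intron model Tbx3-206, together with Tbx3-202, at the first site with 14.8% and 13.8%. All of them lie within 349 bases, and grouped at 500 bases they made up 97.1% of TPM on average. Separate promoters therefore cannot be read from these models. The antisense gene Tbx3os1 overlaps the first start and had 94 and 63.08 counts, 3.86 and 3.48 TPM, and Tbx3os2, 371 bases beyond the gene's end, had 2 counts in each library.

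**Figure D5:**
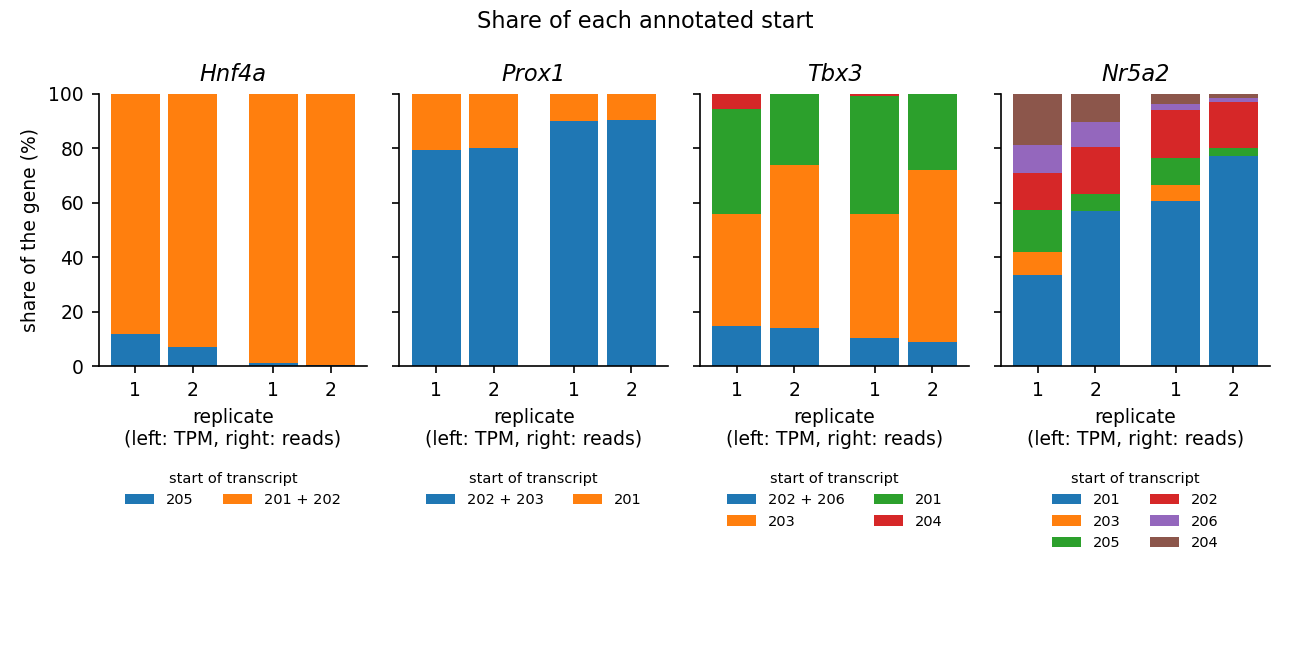
Share of each annotated start (y axis, percent of the gene) for Hnf4a, Prox1, Tbx3 and Nr5a2 in replicate 1 and replicate 2, by TPM in the left pair of bars and by reads in the right pair. Colours are starts in order along the gene, named by their transcripts, and the P2 start of Hnf4a holds 11.8% and 6.98% by TPM but 1.04% and 0.583% by reads.

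Markers of mesenchyme and heart, where Tbx3 is also expressed, were set beside it. Of 8 markers of the septum transversum and mesothelium 5 passed 1 TPM, where 54.3% of protein-coding genes did. Alcam, Lhx2 and Upk3b were at 7.41 ± 0.615 TPM, 7.04 ± 0.247 TPM and 5.80 ± 0.0212 TPM, and the list summed to 28.5 and 29.9 TPM. Tbx18 and Msln were under 1 TPM. Of 5 heart markers 3 passed 1 TPM, again beside 54.3% of protein-coding genes. These were Myl7 at 18.5 ± 0.41 TPM, Actc1 at 7.69 and 17.09 TPM, and Tnnt2 at 1.28 and 2.79 TPM on 49 and 94 counts. Nkx2-5, which defines cardiac muscle, was at 0.11 and 0.16 TPM. Heart markers summed to 28.9 and 38.9 TPM, a difference that lay mainly in Actc1. The part of these cells in the Tbx3 level was not tested.

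Other transcription factors of the developing liver gave the scale for these levels. Of 24 such genes 21 passed 1 TPM and 8 passed 10 TPM, where 54.3% and 32.1% of protein-coding genes did. The list had a median of 4.135 TPM in replicate 1 and 4.04 TPM in replicate 2. Xbp1, the regulator of secretory capacity, led with 92.2 ± 2.31 TPM, followed by Hhex, a homeobox gene needed for hepatoblast expansion, at 32.97 ± 0.573 TPM and Hlx, a homeobox gene of liver mesenchyme, at 24.2 ± 2.72 TPM. Nr1i3, the xenobiotic receptor CAR of the mature liver, was lowest at 0.245 ± 0.0778 TPM. Foxa3 and Hnf4a would stand within the range of the 8 higher genes of this list, and Foxa1 near Nr1h4 at 2.12 ± 0.354 TPM.

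The choice of annotation moved these genes little. Each library was quantified under GENCODE M4 and M21, and 0 of the 8 genes differed by over 1.5-fold in the same direction in both libraries, where 1.72% of 42364 genes did. TPM under M21 was 0.957 to 1.08 times that under M4 in replicate 1 and 0.957 to 1.07 times in replicate 2, with Foxa3 the lowest and Tbx3 the highest, against a median of 0.965 over genes at 1 TPM or more in both libraries. Tbx3 had more reads under M21, 1244 and 1043 against 1190 and 997 under M4. Counts of Hnf4a, Foxa1, Foxa2, Cebpa, Prox1 and Nr5a2 were the same under both annotations.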

How the data were processed

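Deposited gene and transcript tables of 2 libraries of polyA RNA (mm10, GENCODE M21, and M4 as an alternative, per the notes deposited with each library) were used. Expected counts, rounded to whole numbers for intervals and for DESeq2, are the authors' estimates of reads per gene or transcript. TPM values are the authors' too, per the file headers, over totals that include ERCC spike-ins, 4.99% and 5.40% of TPM. No quantifier and no strand setting is given in the sources used here. Entries that share a symbol were summed. The libraries were scaled by TMM (edgeR 4.0.16), with DESeq2 1.42.0 size factors, total counts and the spike-ins as alternatives. Genes with a mean expected count of 10 or more were called past 2-fold where the ratio (prior count 0.5) passed it and the exact 95% binomial interval excluded the scaled split. The common dispersion gave a biological coefficient of variation of 0.0451, and chi-square per gene on 1 degree of freedom had a mean of 3.75 and a median of 1.21 (a median of 0.652 for the 8 genes). Starts within 50 bases were grouped. Named were the 8 genes, the 3 highest of each list and up to 2 under 1 TPM, starts at 10% of TPM in either library, and genes within 5000 bases. The genes and lists were chosen with earlier results of these data known. Promoters are RefSeq windows of 250 bases before to 50 after a start, found for 7 of the 8 genes.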

Additional observations from a re-analysis of the deposited data

Results flagged for a closer look

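A second Foxa3 transcript, ENSMUST00000153321.1, with a length of 1915 bases, is listed under GENCODE M4 and has no model in M21, so it enters no share above. It was assigned 100.08 reads in replicate 1 and 72.87 reads in replicate 2, more than the 3 counts that a count of 0 allows, with deposited posterior SDs of 45.7 and 38.28 reads. By TPM it held 7.498% and 6.24% of Foxa3 under M4. The whole gene had 1414 and 1241 counts under M21 and 1417 and 1244 under M4, so the reads of this transcript stood almost wholly on Foxa3-201 under M21.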

How the results depend on the processing

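The count of genes at 1 TPM stayed at 8 and the counts past 2-fold between libraries and past 1.5-fold between annotations stayed at 0 under every alternative tried for them. Spike-in scaling moved the log2 ratios of Hnf4a to 0.081, Foxa2 to 0.012, Prox1 to 0.12 and Nr5a2 to 0.086, from below 0 to above it. At 10 TPM 2 genes became 3 when TPM was rescaled to Ensembl genes, as Cebpa reached 10.2 TPM. The order of the 8 levels was the same in every alternative, with levels under M4 changed by -6.92% to 4.46%. Without replicate 1 or without replicate 2, Foxa3 over Foxa2 ranged from 4.684 to 5.306, Foxa3 over Foxa1 from 10.29 to 10.75, Hnf4a over Hnf4g from 23.49 to 37.09, Cebpa over Cebpb from 0.4954 to 0.5284, Prox1 over Prox2 from 1.851 to 1.945, Tbx3 over Tbx2 from 6.739 to 9.688 and Nr5a2 over Nr5a1 from 84.67 to 166.0. The P2 share of Hnf4a ranged from 6.979% to 11.84%, the upstream share of Prox1 from 79.1% to 79.84%, that of Nr5a2 from 33.53% to 56.86%, Cebpa-202 from 12.71% to 19.5% and the short exon of Tbx3 from 30.39% to 48.06%. By reads in place of TPM, which leaves length uncorrected, the P2 share was 0.81%, the upstream share of Prox1 90.02% and that of Nr5a2 68.85%. Posterior mean TPM gave 9.915 for Foxa3 over Foxa1 and 49.01 for Nr5a2 over Nr5a1. M4 gave 5.659 for Prox1 over Prox2 and 80.29% for the upstream Prox1 start, and grouping identical starts only gave 72.97%, since Prox1-203 then stands apart. Over all genes, 408 passed 2-fold between libraries, 749 with no filter on low counts and 18 at a mean count of 100 or more, and 729 passed 1.5-fold between annotations, 1110 with a pseudocount of 0.1 TPM. The causes of these changes were not tested beyond what is stated. M4 lists no Cebpa-202, so that share has no value there. No paired analysis was possible because both libraries belong to 1 group. Depth limits the transcripts with few reads, such as Hnf4a-205 and Nr5a2-206.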
